A study of Danio rerio with 6 samples.

Results

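Cell junction genes were followed in zebrafish eye tissue with and without the RPE (retinal pigment epithelium), a pigmented sheet of cells that backs the photoreceptors. They were taken as the genes whose symbol in the platform annotation begins with cdh, pcdh, cldn, ocln, tjp, jup, ctnn, gja, gjb, gjc, gjd, dsp, dsc, pkp, pard or f11r, with cldn5a and cdh5 set aside. That gave 70 genes of 8793 named on the array, and where a gene had several probe sets the brightest by mean log2 intensity was used. In all 86 probe sets carried these genes, and 4 further ones listed with several genes each were left unnamed. The beginning of a symbol also brings in ctnnbl1, which encodes a splicing-associated protein, and ctnnbip1, which encodes an inhibitor of beta-catenin. Neither is a junction component. Every animal was a wild-type AB embryo at 52 hours post fertilization, untreated as far as the labels say. The 3 retina samples and the 3 retina with RPE samples each pooled 10 dissected tissues, from which 33 ng of total RNA was amplified in 2 cycles. The labels call the pools biological replicates. No group holds RPE alone, so each value with RPE mixes epithelium with retina.

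Values are linear intensities, given with neither a detection call nor a measure of background. Retina with RPE was compared with retina by limma on the log2 scale, and a gene was called at an adjusted p under 0.05. All 6 RPE and melanin markers rose with RPE attached, with a summed intensity of 497 to 565 in retina and 2697 to 3791 with RPE. Of 6 retinal neuron markers, 5 fell, and their sum was 7669 to 9380 in retina and 5470 to 5940 with RPE (elavl3 was not called). Markers of other tissues rose too. These were 6 of 6 of mesenchyme and cartilage (sum 407 to 424 against 769 to 1185), 4 of 4 measured of neural crest and its pigment cells (293 to 331 against 972 to 1152), 4 of 5 of muscle (433 to 538 against 750 to 855), 3 of 3 measured of endothelium (180 to 217 against 316 to 352) and 3 of 3 of leukocytes (134 to 143 against 247 to 289). Of 5 measured skin and surface epithelium markers, 2 rose and 1 fell (sum 181 to 218 against 340 to 399), and of 2 lens markers 1 rose (131 to 151 against 165 to 179). Most of the rise in the skin sum came from ahnak, with a mean of 67.1 in retina and 210 with RPE. The keratin genes krt4 and krt5 were not called. No marker was listed at 0. The part of these tissues in the results below was not tested. In such dissected samples, fewer cells of a type and less RNA per cell cannot be told apart.

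Epithelial and neural cells are held together by several kinds of junction. Adherens junctions join neighbours through cadherins, whose tails bind beta-catenin or plakoglobin and, through alpha-catenin, actin. Desmosomes link keratin filaments through desmosomal cadherins, plakoglobin, plakophilins and desmoplakin. Tight junctions, built of claudins, occludin and zonula occludens scaffolds, close the space between cells, and those of the RPE form the outer blood-retina barrier. Gap junctions, made of connexins, pass ions and small molecules from cell to cell.

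With RPE attached, transcripts of plakoglobin (jupa) and of beta-catenin (ctnnb1) were lower, and those of both claudin 11 genes (cldn11a and cldn11b) were higher. The armadillo repeat gene pkp4, the claudin gene cldn15b and the connexin gene gjc4b were also lower, and the connexin gene gjc4a.1 was higher. These 8 genes had a change of at least 0.5 on the log2 scale with groups that did not overlap, 3 higher and 5 lower. At this size 14.9% of all genes were called with groups apart. Of the 70 junction genes, 23 were called (32.9%), where 36.4% of all genes were. The 15 called higher (21.4%) compare with 19.4% of all genes, the 8 called lower (11.4%) with 17.0%, and the 28 whose groups did not overlap with 50.7%. With all levels pooled, the shares thus lay near or below those of the whole array. Of members with a mean log2 level of at least 6, 46.9% were called, against 39.8% of all genes at that level. Of dimmer members 21.1% were, against 30.9%. The median change was 0.06 for junction genes and 0.04 for all genes. Without retina with RPE replicate 3, 12 members were called, 8 higher and 4 lower. Any gene can lose its call when an array is left out, and the count over all genes for that fit is not given here.

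**Figure D1:**
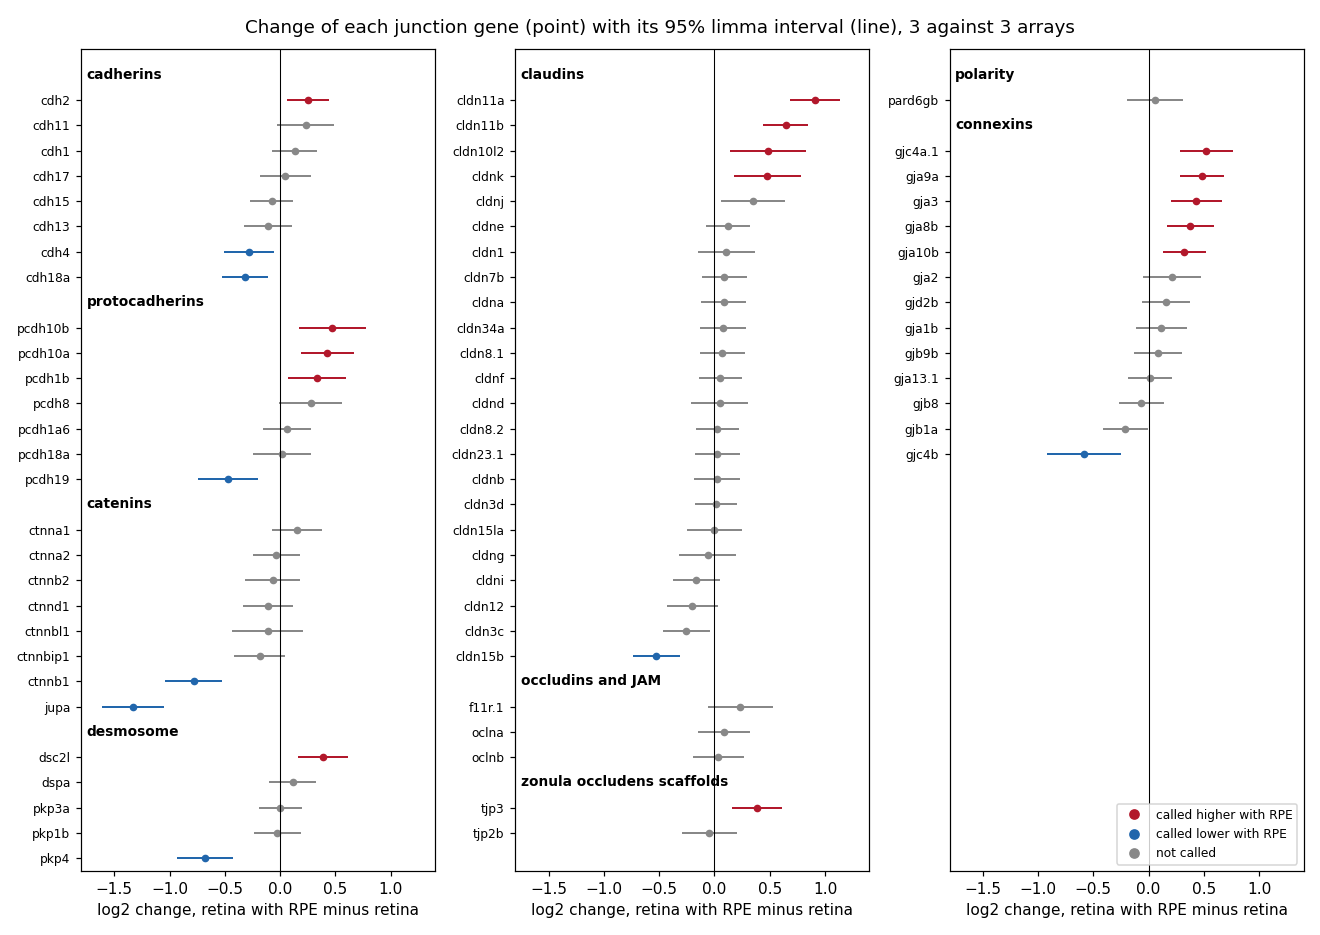
Log2 change (horizontal axis, retina with RPE minus retina) of each of the 70 junction genes by class, with its 95% limma interval from 3 against 3 arrays. The 15 genes called higher are red, the 8 called lower blue and the 47 not called grey, and jupa lies farthest left.

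Many junction genes gave low signals. A mean log2 intensity under 6 was found for 38 of the 70 (54.3%), against 38.1% of all genes. Of these 38 members 8 were called higher and 0 lower, where 26.2% and 4.74% of all genes at that level were (limma, the 30 others not called). Of the 32 brighter members 7 were higher and 8 lower, where all genes of that level gave 15.2% and 24.6%. With no measure of background, a fold given for a dim gene is one of intensities and need not equal that of its transcript. Among all genes the median change was 0.13 below that level and -0.06 above it. Probe sets carry a class letter in their identifiers. The 26 members read by class A gave 4 higher and 3 lower calls, beside 16.7% and 20.7% of all class A genes, and the 44 read by class S gave 11 and 5, beside 22.3% and 13.2%.

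**Figure D2:**
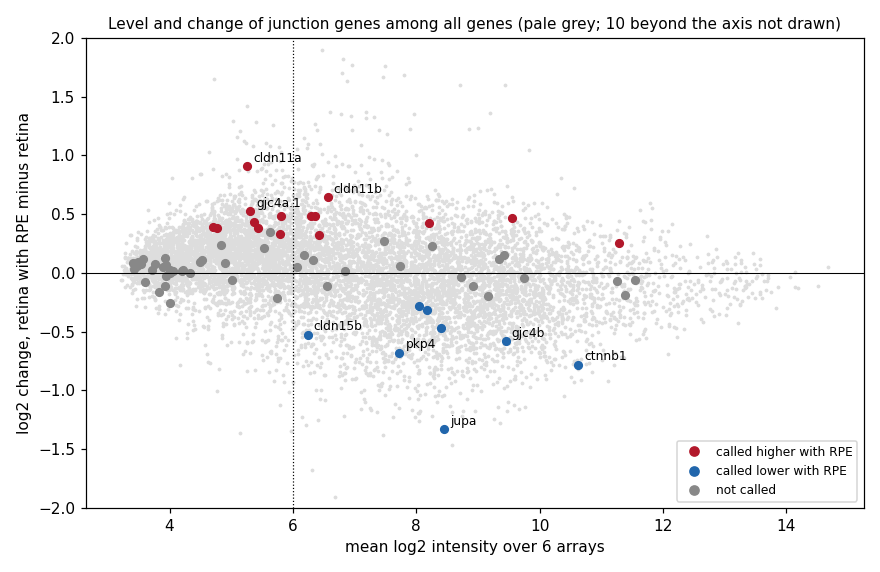
Log2 change (vertical axis) against mean log2 intensity over 6 arrays (horizontal axis) for junction genes (coloured points) and all genes (pale grey, 10 of them beyond the axis). The dotted line marks a mean log2 intensity of 6, and no blue point lies to its left.

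Of 8 classical and related cadherins, 1 rose and 2 fell, beside 19.4% and 17.0% of all genes. All changed by less than 0.5 on the log2 scale, while cyclic loess and quantile normalization each gave 2 higher and 0 lower. N-cadherin (cdh2), which the layered zebrafish retina needs to form, read 2376, 2262 and 2246 in retina and 2834, 2744 and 2625 with RPE. All arrays with RPE lay above those of retina, and the log2 change was 0.25 ± 0.0818 (SE, adjusted p = 0.0376). Its second probe set changed by -0.35 and was not called, and the median over both reversed the sign. The cdh2 call was kept in 9 of 15 alternatives, and leaving out any array but retina replicate 1 ended it. R-cadherin (cdh4), also of neural retina, read 306, 307 and 259 in retina and 243, 224 and 249 with RPE, a log2 change of -0.28 ± 0.0974 (SE, adjusted p = 0.0481). The groups of cdh4 lay apart by a narrow margin, and 10 of 15 alternatives did not call it. The type II cadherin gene cdh18a changed by -0.31 ± 0.0887 (SE) and was called in 8 of 15 alternatives.

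The gene cdh11, a cadherin of mesenchyme in many vertebrates, read 272, 287 and 288 in retina and 391, 307 and 301 with RPE. Replicate 1 with RPE stood highest, and although the groups did not overlap the gene was not called (0.23 ± 0.111, SE, adjusted p = 0.133). Its second probe set changed by 0.32 and was not called either. In 3 of 15 alternatives cdh11 was called higher, namely cyclic loess, quantile normalization and the median over probe sets. E-cadherin (cdh1), the cadherin of most simple epithelia, read 13.8, 14.9 and 14.8 in retina and 14.7, 16.9 and 16.1 with RPE, and its groups overlapped. Its 95% interval was -0.07 to 0.33 on the log2 scale. The genes cdh17, known from kidney and gut, cdh13, which encodes a cadherin anchored by lipid, and cdh15, of muscle, stayed between 11.3 and 16.6 on every array, with changes of 0.05, -0.11 and -0.08, none called. In the same samples mesenchyme markers had risen and retinal neuron markers had fallen, as given above.

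Of 7 protocadherins, 3 rose and 1 fell, beside 19.4% and 17.0% of all genes. Their median log2 level was 7.47, and 5 had a level of at least 6, where 15.2% of all genes rose and 24.6% fell. Cyclic loess gave 2 higher and 1 lower, and quantile normalization 2 and 0. Leaving out any 1 of the retina with RPE arrays left 1 higher, while leaving out retina replicate 1 gave 4. At an adjusted p under 0.01 none was called, and the share of all genes at that threshold is not given here. Protocadherins are adhesion proteins that help to sort neural cells. The related genes pcdh10a and pcdh10b were both called higher. Intensities of pcdh10b were 724, 707 and 511 in retina and 938, 851 and 869 with RPE, a log2 change of 0.47 ± 0.132 (SE, adjusted p = 0.0214), and those of pcdh10a were 236, 238 and 296 in retina and 346, 338 and 346 with RPE, a change of 0.43 ± 0.103 (adjusted p = 0.0111). Both genes were higher on every array with RPE than on any of retina. The call of pcdh10b was lost whichever of the 3 retina with RPE replicates was left out, and the other pcdh10a probe sets changed by 0.21 and 0.22 without a call. In contrast pcdh19, which organizes columns of neurons in the zebrafish brain, read 417, 350.3 and 438 in retina and 282, 327 and 261 with RPE and was 1.39-fold lower (adjusted p = 0.0122), a call that quantile normalization, or leaving out retina with RPE replicate 3, ended. The gene pcdh1b rose by 0.33 ± 0.113 (SE), a call kept in 7 of 15 alternatives. The paraxial protocadherin pcdh8, at 0.27, and the genes pcdh18a, at 0.02, and pcdh1a6, at 0.06, were not called.

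Among the 8 genes named for catenins, plakoglobin and beta-catenin fell and none rose, where 17.0% and 19.4% of all genes did. Cyclic loess and quantile normalization, however, each called 1 higher, ctnna1. All 8 had a mean log2 level of at least 6, where 24.6% of all genes fell and 15.2% rose. The 25% of these 8 that fell thus lay near the share at their level. Plakoglobin (jupa), shared by adherens junctions and desmosomes, read 577, 535 and 560.3 in retina and 234, 254 and 183 with RPE. Every array with RPE lay under the lowest retina array, and jupa was 2.51-fold lower with a 95% interval of 2.09 to 3.03 (adjusted p = 1.3e-04). Its single probe set has a suffix that marks probes shared by several transcripts. Beta-catenin (ctnnb1), which also carries Wnt signals to the nucleus, read 2163, 2215 and 1852 in retina and 1121, 1369 and 1132 with RPE. It was 1.72-fold lower (1.45 to 2.04, adjusted p = 9.7e-04), and its second probe set, 356, 379 and 404 in retina and 246, 233 and 218 with RPE, was 1.63-fold lower. Both genes kept their calls in 15 of 15 alternatives, although the class S setting took the same probe sets and so repeated the main result. The sum of retinal neuron markers was lower in the same samples, and its part in these falls was not tested.

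The second beta-catenin gene, ctnnb2, read 2895, 2460.3 and 2205 in retina and 2446, 2438 and 2279.5 with RPE, with overlapping groups and a change of -0.07 (interval -0.31 to 0.17). Within each array the log2 ratio of ctnnb1 over ctnnb2 was lower with RPE by 0.71, with no overlap between groups. The exact permutation p was 0.1, the smallest that 3 against 3 arrays allow, and 0.35 after adjustment over 7 pairs of related genes. Alpha-catenins link the cadherin complex to actin. Neither the epithelial form ctnna1 (607, 643 and 708 in retina and 758, 658 and 758 with RPE) nor the neural form ctnna2 (466, 405 and 421 in retina and 426, 437 and 395 with RPE) was called, with intervals of -0.07 to 0.37 and -0.24 to 0.17. The p120 catenin gene ctnnd1, which steadies cadherins at the membrane, changed by -0.11 (interval -0.33 to 0.11), the beta-catenin inhibitor gene ctnnbip1 by -0.19 (interval -0.41 to 0.03) and the splicing gene ctnnbl1 by -0.11, none called.

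**Figure D3:**
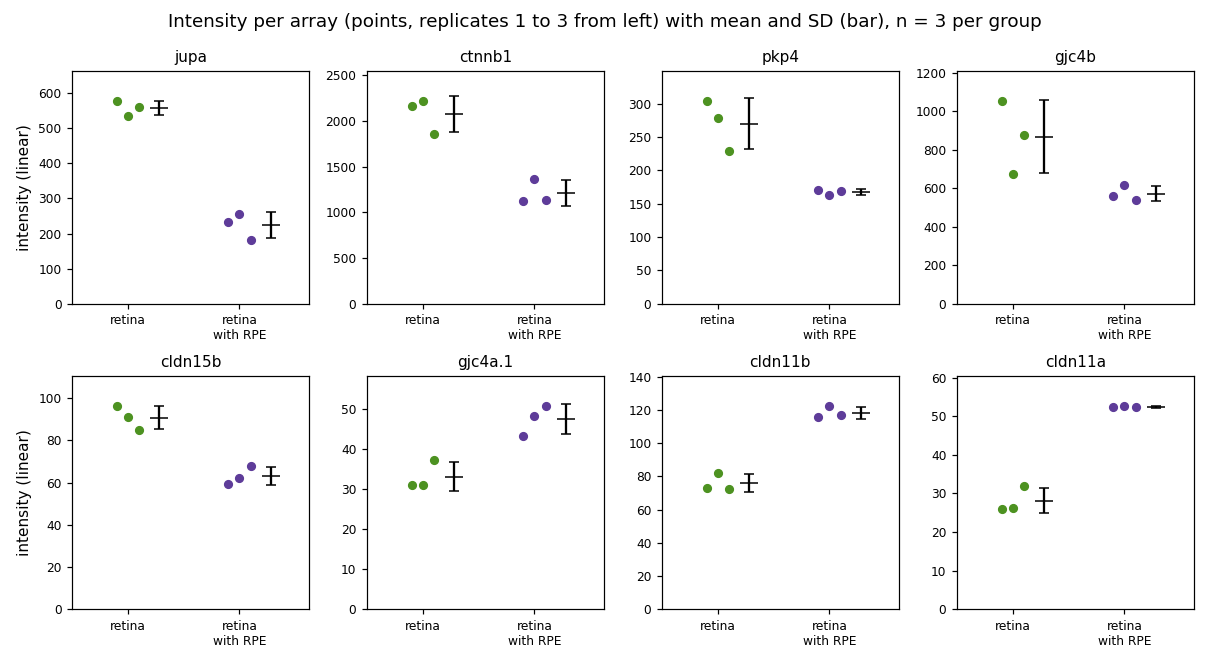
Intensity (vertical axes, linear and from 0) of the 8 called junction genes with the largest changes on each of the 6 arrays, with the mean and SD of 3 beside the points. In each panel the 3 retina points (green) and the 3 retina with RPE points (purple) do not overlap, which was a condition for showing a gene.

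Of 5 genes of desmosomes and their relatives, 1 rose and 1 fell, beside 19.4% and 17.0% of all genes. The gene pkp4, whose protein binds cadherins at adherens junctions and desmosomes, read 304, 278 and 228 in retina and 171, 163 and 169 with RPE, 1.60-fold lower with RPE (1.35 to 1.90, adjusted p = 0.00186). The retina arrays were spread over more than 70 units, and all lay above the arrays with RPE. The desmocollin gene dsc2l, a desmosomal cadherin, read 21.8, 23.9 and 26.2 in retina and 31.4, 29.2 and 33.2 with RPE, a log2 change in intensity of 0.38 ± 0.0975 (SE, adjusted p = 0.014). Its second probe set was called as well, at 0.31. The call of dsc2l was lost under cyclic loess, under quantile normalization and without retina with RPE replicate 3. Desmoplakin (dspa), the linker to keratin, read 22.9, 23.2 and 20.6 in retina and 22.6, 25.2 and 24.2 with RPE, and the epithelial plakophilin genes pkp3a and pkp1b lay between 14.7 and 17.0 on every array, with groups that overlapped. Among skin markers in these samples krt94 and ahnak had risen, epcam had fallen by its brightest probe set, and krt4 and krt5 were not called. The second epcam probe set changed by 0.23 and was not called.

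Tight junction strands consist of claudins, which decide what passes between cells. Of 23 claudin genes, 4 rose, 1 fell and 18 were not called, where 19.4% of all genes rose and 17.0% fell. Their median log2 level was 4.23, and of all genes under 6, 26.2% were called higher and 4.74% lower. The median change of the claudins was 0.05. Under cyclic loess and quantile normalization each the counts were 3 higher and 2 lower, and the median turned slightly negative. Claudin 11 of mammals seals myelin sheaths and the barrier of the testis. Its zebrafish gene cldn11a read 26.1, 26.3 and 31.8 in retina and 52.3, 52.6 and 52.4 with RPE, 1.88-fold higher (1.61 to 2.18, adjusted p = 2.8e-04), and cldn11b read 72.8, 82.0 and 72.4 in retina and 116, 122 and 117 with RPE, 1.56-fold higher (1.37 to 1.79, adjusted p = 8.0e-04). The 3 arrays with RPE gave almost the same cldn11a value. Both genes were called in 15 of 15 alternatives. Each has 1 probe set, so the class S setting and the median over probe sets reused the same values. The changes of this pair differed by 0.26 with overlapping groups (exact permutation p = 0.2, adjusted 0.467, where 0.1 is the smallest p possible).

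The claudin gene cldnk, a marker of myelinating glia in zebrafish, read 53.9, 75.7 and 71.2 in retina and 95.5, 83.5 and 98.7 with RPE, 1.39-fold higher (adjusted p = 0.0196). Leaving out retina with RPE replicate 1 or 3 ended that call. The gene cldn10l2 was 1.397-fold higher and was called in 9 of 15 alternatives. In the other direction cldn15b, related to a mammalian claudin that lets sodium through between gut cells, read 96.1, 91.3 and 84.9 in retina and 59.1, 62.3 and 67.9 with RPE, 1.44-fold lower (1.25 to 1.66, adjusted p = 0.0026), with all arrays with RPE below those of retina. The gene cldn1 is listed in RefSeq also as cldn19, the symbol of a main RPE claudin in humans, and was singled out for that synonym after its values were seen. It read 69.7, 85.8 and 76.4 in retina and 73.6, 85.0 and 91.7 with RPE, overlapped between groups and was not called (interval -0.14 to 0.36). The genes cldnj, at 0.35 ± 0.127 (SE, adjusted p = 0.058), and cldn3c, at -0.25 ± 0.0901 (SE, adjusted p = 0.053), missed the threshold narrowly. They were called in 5 and 6 of 15 alternatives, in both cases with the replicate block among them. Marker sums of mesenchyme, neural crest, muscle, endothelium and leukocytes were higher in the same samples. Skin markers were mixed, with krt94 and ahnak higher, epcam lower by its brightest probe set only, and krt4 and krt5 not called. The part of these tissues in the claudin changes was not tested.

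The direction of cldng, listed in RefSeq also as cldn5l, depended on the probe set. Its brightest, with a suffix for probes that may bind other transcripts, read 3502, 2741 and 2949 in retina and 2978, 3125 and 2676 with RPE and was not called. The next, 1135, 1062 and 1135 in retina and 727, 922 and 695 with RPE, was 1.43-fold lower (adjusted p = 0.00723), a further one, 364, 289 and 231 in retina and 411, 522 and 544 with RPE, was 1.69-fold higher (adjusted p = 0.00707), and the dimmest was not called at -0.17. No direction can be given for this gene. The gene cldn12 was not called at -0.20, nor was cldnd at 0.05. The epithelial claudin genes cldna, cldnb, cldni and cldn7b stayed between 10.0 and 20.4 and were not called. Nor were cldne, cldnf, cldn3d, cldn8.1, cldn8.2, cldn15la, cldn23.1 and cldn34a, which stayed between 10.6 and 22.2, and whose changes ran from -0.0014 to 0.12. At such signals, with no background level, a gene cannot be told from one that is not expressed.

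Occludin is a membrane protein of tight junctions, and f11r.1 encodes a junctional adhesion molecule. None of these 3 genes was called. The occludin gene oclna read 20.6, 22.9 and 21.9 in retina and 24.9, 20.4 and 24.5 with RPE (interval -0.14 to 0.31), and oclnb lay between 9.68 and 11.9. The gene f11r.1 read 25.9, 25.9 and 27.5 in retina and 30.0, 38.1 and 26.2 with RPE, where replicate 2 with RPE stood above the rest and replicate 3 fell within the retina range. Zonula occludens proteins tie these strands to actin. The gene tjp3, for the third of them, read 20.1, 23.3 and 25.1 in retina and 29.4, 29.9 and 29.9 with RPE, a log2 change in intensity of 0.39 ± 0.0975 (SE, adjusted p = 0.0136), with the 3 arrays with RPE close together above retina. Cyclic loess and quantile normalization ended that call. The gene tjp2b read 740.4, 965 and 928 in retina and 835, 850.2 and 848 with RPE and was not called, and its second probe set, 190.2, 183 and 192 in retina and 216, 213 and 266 with RPE, lay higher on all arrays with RPE without passing the test (adjusted p = 0.053). The polarity gene pard6gb, whose protein helps to set the apical side of epithelia, read 194, 227 and 204 in retina and 189.6, 224 and 241 with RPE, with overlapping groups and an interval of -0.18 to 0.30.

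Of 13 connexin genes, 5 rose and 1 fell, beside 19.4% and 17.0% of all genes. The median change was 0.15, against 0.04 for all genes. Their median log2 level was 5.53, and of all genes under 6, 26.2% were called higher with a median change of 0.13. Centring on ribosomal protein genes gave the same counts, quantile normalization 4 and 1, and cyclic loess 4 and 2. The gene called lower under quantile normalization was gjb1a, where the main fit called gjc4b. The pair named gjc4 went in opposite directions, at mean log2 levels of 5.30 for gjc4a.1 and 9.45 for gjc4b. Of all genes under 6, 4.74% were called lower, and of those of at least 6, 24.6%. The part of level in this contrast was not tested. Intensities of gjc4a.1 were 31.0, 30.9 and 37.2 in retina and 43.3, 48.2 and 50.6 with RPE, 1.44-fold higher (1.22 to 1.69, adjusted p = 0.00491). Those of gjc4b, known from the left-right organizer of the zebrafish embryo, were 1054, 675 and 879 in retina and 559, 616 and 541 with RPE, 1.497-fold lower (1.19 to 1.88, adjusted p = 0.0133). The log2 ratio of gjc4a.1 over gjc4b was higher with RPE by 1.10, with no overlap (exact permutation p = 0.1, adjusted 0.35). That test cannot go under 0.1 with 3 against 3 arrays, so it cannot decide whether the pair differs. The second gjc4a.1 probe set was not called at 0.09. The call of gjc4b was lost under quantile normalization and without retina with RPE replicate 3.

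Connexin genes known from retinal horizontal cells were among those that rose. The sum of retinal neuron markers was lower in the same samples, and which cells gave these signals was not tested. The gene gja9a (listed in RefSeq as cx55.5) read 67.8, 71.0 and 70.6 in retina and 92.4, 105 and 95.4 with RPE, 1.39-fold higher (1.22 to 1.59, adjusted p = 0.00284), and gja10b (cx52.6) read 72.4, 76.6 and 80.2 in retina and 93.0, 94.5 and 99.1 with RPE, 1.25-fold higher (1.10 to 1.42, adjusted p = 0.0155). Every array with RPE exceeded every retina array for both, and leaving out retina with RPE replicate 3 ended the call of gja10b. The lens connexin gene gja3 read 33.7, 38.0 and 35.7 in retina and 44.3, 47.2 and 53.6 with RPE, 1.35-fold higher (adjusted p = 0.0088). Its lens partner gja8b read 35.2, 39.2 and 39.6 in retina and 46.9, 52.6 and 48.5 with RPE, 1.299-fold higher (adjusted p = 0.0109). The groups of both were apart, and gja8b lost its call under cyclic loess and quantile normalization. Of the lens markers measured beside them, cryaa rose from a mean of 74.9 to 99.2 and crybb1 was not called.

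The widely used connexin gja1b (cx43) read 674, 628 and 582 in retina and 707, 723 and 612 with RPE, with overlapping groups and an interval of -0.11 to 0.34. The neuronal connexin gjd2b, of electrical synapses, read 67.5, 64.1 and 76.1 in retina and 72.6, 79.5 and 78.7 with RPE (interval -0.06 to 0.36), and the skin connexin gjb8 changed by -0.06 (interval -0.26 to 0.13). Neither was called. The gene gjb1a read 56.1, 56.5 and 61.1 in retina and 46.7, 51.4 and 52.0 with RPE, lower on all arrays with RPE, and missed the threshold (adjusted p = 0.0855). It was called lower in 2 of 15 alternatives, cyclic loess and quantile normalization. The other connexin genes gja2, gjb9b and gja13.1 changed by 0.21, 0.08 and 0.01, with groups that overlapped.

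Several probe sets were present for 13 of the junction genes, 29 probe sets in all. In 7 of the 13 all probe sets of a gene lay in the same direction. For ctnnb1 and dsc2l every probe set was called the same way, and cldng was the 1 gene with calls in both directions. For cdh2, cldn12, cldn7b, pcdh18a and tjp2b signs differed with at most 1 probe set called.

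**Figure D4:**
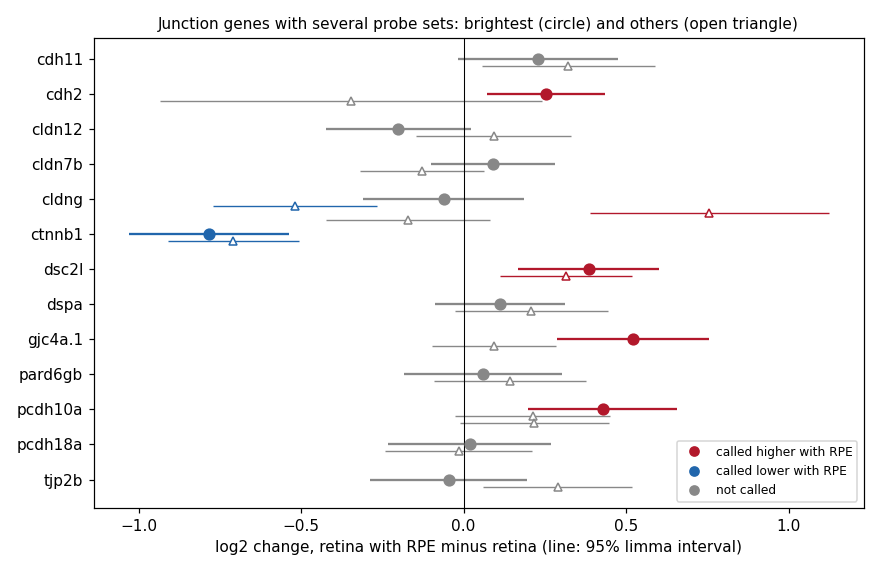
Log2 change with its 95% limma interval (horizontal axis) for each probe set of the 13 junction genes that have several. Circles are the brightest probe set of a gene and open triangles the others, in red or blue where called, and cldng spreads from -0.52 to 0.76.

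Partners of these proteins outside the chosen symbols were counted from a list of 81, of which 34 were measured. Of these 7 rose and 10 fell, beside 19.4% and 17.0% of all genes, and their median change was -0.13. Probe sets disagreed, however. For 4 of the 10 that fell by the brightest probe set, jam3b, magi1a, msna and perp, another probe set was called higher, so no direction can be given for these, which were singled out after their values were seen. None of the 7 that rose had a probe set called lower, but only patj, dsg2.1 and lmo7a had others, so the rest could not disagree. Those other probe sets changed by -0.07 for patj and by -0.05 and 0.17 for dsg2.1, none called. For lmo7a they changed by 0.46, called higher, and by 0.15, not called. The junctional adhesion gene jam2a read 35.0, 34.7 and 36.6 in retina and 65.8, 59.8 and 59.3 with RPE, 1.74-fold higher (adjusted p = 2.6e-04). The polarity scaffold genes dlg1a and patj were 1.70-fold and 1.51-fold higher, although a second patj probe set was not called. The adhesion receptor gene cxadr read 99.3, 107 and 84.2 in retina and 52.9, 63.1 and 56.7 with RPE, 1.68-fold lower (adjusted p = 0.00123), and the polarity gene lin7b was 1.65-fold lower. The scaffold gene magi1a was 1.54-fold lower on the brightest of its probe sets, with the disagreement just given. The groups of these 6 did not overlap by the brightest probe set. That adds little, since they were picked as the called partners with the largest changes. Groups were apart for 22 of the 34 partners, beside 50.7% of all genes.

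Of the 23 called junction genes, 9 were called in each of 15 alternatives. These are the settings that tested all members at an adjusted p under 0.05, so the filter on dim probe sets and the stricter p are not among them. The 9 genes were jupa, ctnnb1, pkp4 and cldn15b on the lower side and cldn11a, cldn11b, gjc4a.1, gja9a and gja3 on the higher. For all 9 the class S setting repeated the main result, since it took the same probe set, and could not end a call. Except for ctnnb1 and gjc4a.1 they have 1 probe set each, so the median over probe sets reused the same values. The other 14 lost the call in at least 1 alternative, and only cdh2 reversed its sign in any. Among the 47 not called, 7 were called in 1 or more. The share of all called genes that kept their call is not given here, so 9 of 23 cannot be read as high or low.

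**Figure D5:**
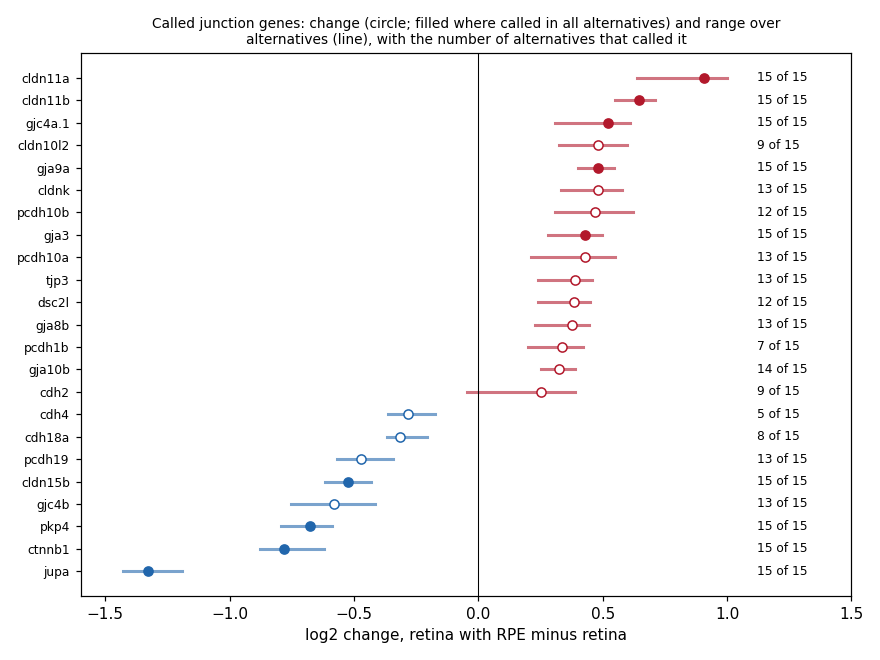
Log2 change (circles, horizontal axis) of the 23 called junction genes and its range over 15 alternatives (lines), with the number of alternatives that called each gene at the right. Filled circles mark the 9 genes called in all 15, and only the line of cdh2 crosses 0.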

How the data were processed

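Arrays of 6 pools were compared. The authors deposited an intensity on a linear scale for every probe set of each array, as its range shows. RMA, the affy package and R 2.2.0 are named per the submitters' processing notes, with no order of steps. Array medians were 68.7 to 69.6 in retina and 73.2 to 74.5 with RPE. The lower quartile was also higher with RPE, at 27.8 to 28.4 against 24.9 to 26.0 in retina. In contrast the upper quartile was lower, at 265 to 271 against 285 to 293. The part of this narrower range in the calls was not tested. Arrays correlated at r = 0.994 to 0.997 within groups and 0.980 to 0.988 between them. Of 15617 probe sets, 115 controls were left out. Names came from the platform annotation, and all 70 members matched a current RefSeq gene by identifier.

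The log2 intensities of 15502 probe sets were fitted with limma 3.58.1 (R 4.3.3; lmFit, eBayes, 2-sided, Benjamini-Hochberg over all probe sets), which was tested on simulated data. Means of 3 arrays limit the precision. Intervals and SE are limma's. The ratio of related genes was tested by exact permutation over arrays. Members, lists, tests and naming rule were chosen with earlier results of these data known. Genes were named where called with a change of at least 0.5 and separate groups, in a textbook set, or as the brightest of a class, with up to 6 called partners; other members were named, to describe each class in full, after their values were seen. The study's yields, used by its design to deduct the retinal share, were not used here, so RPE levels were not estimated. Alternatives were cyclic loess, quantile normalization, centring on 78 ribosomal protein genes, the replicate block, a filter at mean log2 6, eBayes with trend and robust, array weights, a pseudocount of 16, the median over probe sets, class S probe sets, an adjusted p under 0.01, and leaving out each array. Figures were drawn with matplotlib 3.10.9. No sequence is printed, since none was given for these genes.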

Additional observations from a re-analysis of the deposited data

How the results depend on the processing

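Against 23 members called and a median log2 change of 0.06, centring on ribosomal protein genes gave 22 calls (21 shared) and a median of 0.12, cyclic loess 20 (16 shared) and 0.0027, and quantile normalization 18 (14 shared) and 0.012. The filter on dim probe sets left 32 members, of which 13 were called, 6 of them higher, with a median of -0.0090; fewer genes were tested there by construction. An adjusted p under 0.01 kept 9 calls, 5 higher and 4 lower. The share of all genes at that threshold is not given here, so this drop cannot be read as large or small. Leaving out each array in turn gave 12 to 22 calls, 8 to 15 higher and 4 to 8 lower, the lowest without retina with RPE replicate 3. Counts over all genes are not given for these fits, so the drop cannot be set against the array. With the replicate block 24 members were called, 22 of them shared. Deviations of same-numbered arrays from their group means correlated at r = 0.175, 0.0786 and 0.130, each array correlating best with its own number. Deviations from a group mean sum to 0, so some positive correlations arise by construction, and these values cannot show pairing. The number is not known to pair the pools, and the array codes in the sample titles do not run in step between the groups. Of the called genes, cdh2 reversed, to -0.0470 by the median over probe sets. The other reversals were of genes not called, 21 members under cyclic loess, 20 under quantile normalization and 6 under centring. Values follow for the genes named by rule. Under cyclic loess and quantile normalization in turn, changes became -0.0435 and -0.0355 for cdh17, -0.0844 and -0.0852 for cldnb, 0.0734 and 0.0446 for cldng, 0.0890 and 0.0921 for ctnna2, 0.0675 and 0.0773 for ctnnb2, -0.0090 and -0.0038 for dspa, -0.0295 and -0.0269 for oclna, -0.0257 and -0.0154 for oclnb, -0.0944 and -0.0930 for pkp3a, and 0.0968 and 0.115 for tjp2b. Centring gave 0.0045 for cldng, 0.0298 for ctnna2, 0.0012 for gjb8 and 0.0199 for tjp2b, the median over probe sets -0.0184 for cldn7b, 0.119 for cldng and 0.121 for tjp2b, class S probe sets 0.289 for tjp2b, and array weights -0.0032 for pkp3a. Leaving out arrays gave ranges of -0.0208 to 0.0921 for cdh17, -0.0358 to 0.0738 for cldnb, -0.138 to 0.0386 for cldng, -0.0790 to 0.0215 for ctnna2, -0.161 to 0.0350 for ctnnb2, -0.0352 to 0.115 for oclnb, -0.0157 to 0.156 for pard6gb, -0.0315 to 0.0211 for pkp3a and -0.164 to 0.0268 for tjp2b. The cause was not tested. Signals have no measured background, which limits what can be said of dim genes.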
